A study of Homo sapiens with 34 samples.

Results

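The presomitic mesoderm and segmentation clock genes are 8 genes chosen by name: TBX6, MSGN1, MESP2, RIPPLY2, HES7, LFNG, DLL1 and DLL3. They are 8 of the 35940 gene symbols in the count tables, and all 8 passed the filter on low counts, MESP2 and RIPPLY2 at low levels. The data are RNA sequencing of wild-type cells of the human embryonic line ESI017, an established pluripotent line, in 34 libraries from 17 conditions with 2 biological replicates each. The study asked which fates the populations of the primitive streak (PS), the structure through which cells of the embryo leave the epiblast, can still reach. Cells were driven for 24 h toward 1 of 4 PS populations and then, for some libraries, moved to 1 of 3 media until 48 h.

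On day 1, DE(a) cells, the progenitors of definitive endoderm, received 100 ng/ml activin and 2 µM CHIR99021, a Wnt pathway agonist. Anterior PS (APS) cells received activin at 30 ng/ml, bFGF at 20 ng/ml and CHIR99021 at 4 µM. Mid PS (MPS) cells received the same activin and bFGF with 40 ng/ml BMP4 and 6 µM CHIR99021, and posterior PS (PPS) cells the same mixture but no activin. On day 2, the endoderm medium DE(b) held 100 ng/ml activin and 250 nM of the BMP inhibitor LDN-193189. The paraxial mesoderm medium (PM) held 1 µM of the TGFβ receptor inhibitor A-8301 with 20 ng/ml bFGF and 250 nM LDN-193189. The lateral mesoderm medium (LM) combined A-8301 at 1 µM with BMP4 at 30 ng/ml and 4 µM IWP2, an inhibitor of Wnt secretion. The sample descriptions and the study's methods list no CHIR99021 in PM medium. A supplementary legend of the study does, and its main text describes Wnt activation on day 2 of this protocol. Whether CHIR99021 was present in these samples is unresolved here. A condition is named by both treatments, as in PPS-DE(b), and the standard protocols are DE(a)-DE(b) for endoderm, APS-PM for paraxial mesoderm and MPS-LM for lateral mesoderm. The control (Ctrl) was kept in the pluripotency medium mTeSR PLUS, for 48 h by the labels. A shorter time is given elsewhere, so its age is uncertain. All groups share 1 cell line, and nothing further is said of how the replicate cultures were separated, so p-values measure the spread between these samples.

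Presomitic mesoderm is the unsegmented paraxial tissue behind the forming somites, and it is built up from cells that leave the PS and tail bud. TBX6 and MSGN1 are transcription factors that commit cells to it, while a clock of HES7, a repressor of its own gene, and LFNG, a glycosyltransferase that modifies Notch, oscillates with each somite. DLL1 is the ligand that activates Notch and DLL3 a divergent ligand that acts inside the signalling cell, and MESP2 and RIPPLY2 act at the front of the tissue, where MESP2 sets the segment boundary and RIPPLY2 ends the TBX6-dependent programme.

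The stretch of 150 bases before the start of each gene is shown for the 4 members in which a searched motif was found. Averaged over the day 1 treatments, 2 of them (MSGN1, HES7) were called higher in PM medium than at 24 h. The other 2 (MESP2, RIPPLY2) were not. The sequences were taken from RefSeq on GRCh38.p14 and read 5′ to 3′ on the strand of the gene. The MSGN1 window is chr2:17816310-17816459 (plus strand), the MESP2 window chr15:89776182-89776331 (plus strand), the RIPPLY2 window chr6:83853210-83853359 (plus strand) and the HES7 window chr17:8124107-8124256 (minus strand). Capitals mark a match to a motif on either strand: the core of the Notch effector RBPJ (TGGGAA) in MSGN1 and MESP2, the T-box core (GGTGTGA) and the TATA box (TATAAA) in RIPPLY2, and the N-box bound by HES repressors (CACNAG) in HES7.
MSGN1: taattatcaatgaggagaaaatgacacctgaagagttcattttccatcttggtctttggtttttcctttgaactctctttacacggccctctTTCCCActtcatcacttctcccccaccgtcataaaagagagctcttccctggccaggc
MESP2: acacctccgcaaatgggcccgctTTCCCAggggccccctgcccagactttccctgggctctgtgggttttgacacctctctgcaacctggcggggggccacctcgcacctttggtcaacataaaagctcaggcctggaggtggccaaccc
RIPPLY2: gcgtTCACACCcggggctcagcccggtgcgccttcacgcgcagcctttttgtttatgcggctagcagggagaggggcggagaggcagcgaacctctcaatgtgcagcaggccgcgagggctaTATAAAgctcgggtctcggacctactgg
HES7: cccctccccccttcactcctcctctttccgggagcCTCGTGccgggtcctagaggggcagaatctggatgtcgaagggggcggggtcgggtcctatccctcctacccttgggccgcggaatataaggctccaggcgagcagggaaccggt
The promoter table matched 6 of the 8 members, without DLL1 and DLL3. Matches were counted in the 250 bases before the start, where the RBPJ core occurred in 20.8% of 34796 promoters, the T-box core in 2.77%, the N-box in 32.0% and the TATA box in 10.8%. Counting back from the base before the start, the RBPJ match began at -58 in MSGN1 and at -127 in MESP2, both on the minus strand relative to the gene. The T-box match of RIPPLY2 began at -146 on the minus strand, the N-box match of HES7 at -115 on the minus strand, and the TATA box of RIPPLY2 at -28 on the plus strand. In TBX6 and LFNG these letters were not in the window, and neither the E-box of basic helix-loop-helix activators (CAGCTG, 13.96% of promoters) nor the TCF site of Wnt targets (CTTTGAT, 2.26%) was in any of the 6. With 50 bases after the start added, MSGN1 also held 1 E-box and LFNG 1 RBPJ core. A match describes the letters and says nothing of binding.

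The libraries held 15522780 to 23439799 estimated counts, so that 3 counts, the limit that a count of 0 allows, correspond to 0.128 to 0.193 CPM (estimated counts scaled to the library total), covering counting error only. Levels are CPM with the SD of the 2 replicates, and differences are log2 fold changes with the standard error (SE) of the edgeR quasi-likelihood fit, called at a Benjamini-Hochberg adjusted p under 0.05 over the 17894 genes tested. Markers of the other cell types differed between media, with CXCR4 apart from the other endoderm markers. The summed CPM of SOX17, FOXA2, CXCR4 and CER1 (definitive endoderm) was 3453 to 6432 in the 8 DE(b) libraries and 234 to 335 in the 8 PM libraries, where CXCR4 alone gave 156 to 335. Most of the DE(b) sum was CER1 (3329 to 6006 CPM), and CXCR4 was higher in PM than in DE(b) (log2 fold change 2.31, SE 0.27). CER1 did not pass 0.752 CPM in PM libraries, while SOX17 and FOXA2 reached 72.7 and 33.0 CPM in the highest library of each. HAND1, HAND2, FOXF1 and GATA4 (lateral mesoderm) summed to 459 to 2369 CPM in LM and 8.89 to 45.7 CPM in PM. TFAP2A, GATA3, ISL1, VTCN1 and GABRP (amnion) summed to 78.8 to 459 CPM in LM and 1.35 to 13.0 CPM in PM. ISL1 is also used as a lateral mesoderm marker in the study. VTCN1 and GABRP had means of 7.75 and 41.8 CPM in PPS-LM. In the other LM conditions their means did not pass 0.263 and 3.56 CPM, beside 0.193 and 3.63 CPM in the control. POU5F1, NANOG and SOX2 (pluripotent cells) summed to 623 to 812 CPM in the control and 17.2 to 62.0 CPM in PM, and 5 neural genes to at most 1.91 CPM in any library. POU5F1 has 4 gene identifiers and GATA4 has 2. Only 1 of each was read, so the sums that hold these genes may be too low. The part of all these markers in the results below was not tested. In bulk samples, fewer cells of a type and less RNA per cell cannot be told apart.

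At 24 h, the early presomitic genes were graded with the day 1 treatment. TBX6, MSGN1, HES7, DLL1 and DLL3 were lowest in DE(a) cells and highest in MPS or PPS cells. The 4 treatments differed for 6 members in an F test (TBX6, MSGN1, HES7, LFNG, DLL1 and DLL3), against 18.8% of all genes tested. MSGN1 spanned the widest range. It stood at 1 count in each DE(a)-24h library, 2.65 and 2.84 CPM in APS-24h, 52.5 and 60.4 CPM in MPS-24h, and 92.1 and 64.1 CPM in PPS-24h, with 0 counts in both control libraries. These groups did not overlap from one treatment to the next, although the step from MPS to PPS was not called (log2 fold change 0.40, SE 0.22, adjusted p = 0.341).

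HES7 followed the same order at a lower level. Its counts were 0 and 1 in DE(a)-24h and 3 and 7 in APS-24h, and its level was 2.97 and 2.40 CPM in MPS-24h and 17.5 and 15.0 CPM in PPS-24h. It was the only member called between PPS-24h and MPS-24h (2.52, SE 0.38, adjusted p = 0.000237), where 6.14% of all genes were called. DLL1 rose from 0.942 ± 0.649 CPM in DE(a)-24h to 8.19 ± 0.843 CPM in APS-24h and 64.1 ± 5.92 CPM in MPS-24h (SD, n = 2 each). DLL3 stood at 8.36, 23.2, 62.4 and 59.3 CPM and TBX6 at 5.65, 20.7, 37.6 and 33.6 CPM in DE(a)-24h, APS-24h, MPS-24h and PPS-24h (means of 2). Between the neighbours APS-24h and DE(a)-24h, 3 members were higher (TBX6, MSGN1, DLL1) against 0.738% of all genes called in either direction. Between MPS-24h and APS-24h, 5 were higher (MSGN1, HES7, LFNG, DLL1, DLL3) against 2.93%. Without MPS-24h replicate 1, MPS-24h replicate 2 or APS-24h replicate 2, that count was 3, with LFNG and DLL3 no longer called, and DLL1 was not called in APS-24h against DE(a)-24h without DE(a)-24h replicate 2 (2.53, adjusted p = 0.0715).

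Against the undifferentiated control, TBX6 rose in all 4 populations, from 1.72 and 0.585 CPM in the control. Its log2 fold changes were 2.35 (SE 0.31) in DE(a)-24h, 4.21 (SE 0.31) in APS-24h, 5.09 (SE 0.31) in MPS-24h and 4.85 (SE 0.31) in PPS-24h. MSGN1 was at least 18.6-fold higher in APS-24h, 383-fold in MPS-24h and 529-fold in PPS-24h, taking 3 counts in each control library. MESP2 was called higher in all 4, at means of 1.103 to 2.78 CPM against 1 and 3 counts in the control. LFNG started from 21.2 and 15.6 CPM in the control and was lower in DE(a)-24h (-1.70, SE 0.34) and APS-24h (-1.64, SE 0.34), while in MPS-24h (-0.32, SE 0.32) and PPS-24h (0.28, SE 0.32) it was not called. The members called numbered 5 in DE(a)-24h (3 higher, 2 lower) against 19.0% of all genes, 6 in APS-24h (5 higher, 1 lower) against 24.5%, 6 in MPS-24h against 30.0% and 6 in PPS-24h against 29.8%, the last both all higher. The count in DE(a)-24h fell to 2 without Ctrl replicate 1 and to 3 without either DE(a)-24h replicate, and the call of MESP2 was lost in all 4 populations without Ctrl replicate 1 (adjusted p of 0.0786 to 0.238).

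**Figure D1:**
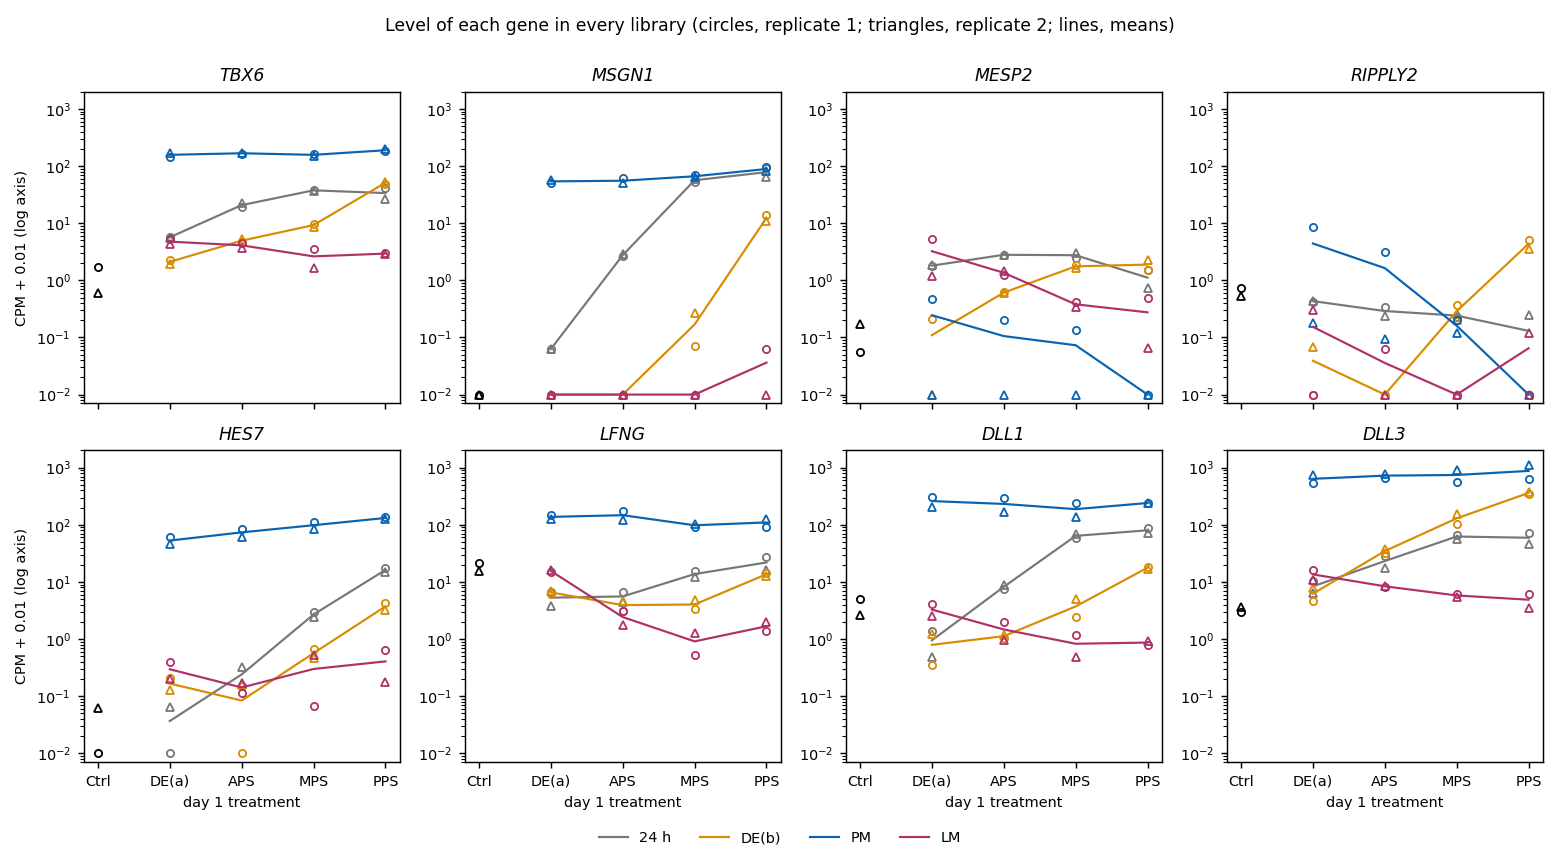
Level of each of the 8 genes, 1 per panel, in CPM on a log axis after adding 0.01, against the day 1 treatment. Points are the 34 libraries and lines join the means of the 24 h, DE(b), PM and LM conditions, with the control apart. The PM points of TBX6, HES7, LFNG, DLL1 and DLL3 lie above all others, those of MESP2 and RIPPLY2 do not, and the DE(b) lines climb toward PPS.

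In PM medium, the factors, the clock genes and both ligands reached their highest condition means, and they did so from every day 1 treatment. Averaged over the 4 treatments, 6 members were higher in PM than at 24 h, than in DE(b) and than in LM, MESP2 was lower in all 3 comparisons, and RIPPLY2 was not called. Of all genes tested, 48.2% were called between PM and 24 h (23.2% higher, 25.1% lower), 43.0% between PM and DE(b) (21.5% higher, 21.4% lower) and 42.0% between PM and LM (21.0% higher, 21.0% lower). The median log2 fold change of the 8 members was 3.55, 4.26 and 6.05 in these comparisons, against -0.02, 0.01 and -0.00 over all genes. With conditions at 0 set to 3 counts per library, the members' medians of the log2 ratio of CPM were 3.47, 4.32 and 6.10. The summed level of the 8 members was 1238 to 1893 CPM in the PM libraries and at most 484 CPM in any other library.

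TBX6, the T-box factor of the presomitic mesoderm, was the most even. Its level was 146 and 169 CPM in DE(a)-PM, 163 and 171 CPM in APS-PM, 161 and 153 CPM in MPS-PM, and 183 and 195 CPM in PPS-PM. No library outside PM passed 52.8 CPM, so the groups were far apart. The mean log2 fold change was 2.999 (SE 0.13) against 24 h, 4.26 (SE 0.14) against DE(b) and 5.53 (SE 0.15) against LM, with adjusted p of 7.6e-14, 3.5e-16 and 5.1e-17 by edgeR. TBX6 was called higher in each of the 12 comparisons of PM with 24 h, DE(b) or LM within a day 1 treatment.

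MSGN1, a bHLH factor of the same cells, was already high at 24 h in part of the populations. In PM its libraries lay between 49.7 and 96.8 CPM with a median of 62.2 CPM. From DE(a) cells it rose from 1 count per library to 50.5 and 57.3 CPM, a ratio of pooled counts of 1016 (95% counting interval 281 to 8399). From APS cells it rose by 4.23 (SE 0.26) on the log2 scale. In MPS and PPS cells PM and 24 h did not differ beyond the test's threshold, with differences of 0.12 (SE 0.22, adjusted p = 0.77) and 0.15 (SE 0.22, adjusted p = 0.703). The MPS-24h mean was 85.3% of the MPS-PM mean and the PPS-24h mean 88.0% of the PPS-PM mean. In LM medium MSGN1 was lost, at 0 counts in 7 of 8 libraries and 1 count in the other.

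HES7, the clock repressor whose promoter above holds the N-box, had the largest mean rise from 24 h among the members. It reached 60.3 and 45.8 CPM in DE(a)-PM, 85.7 and 61.9 CPM in APS-PM, 112 and 85.0 CPM in MPS-PM, and 137 and 127 CPM in PPS-PM. Outside PM its highest library was a PPS-24h library at 17.5 CPM, so no library of another condition came near. The mean log2 fold change was 6.70 (SE 0.25) against 24 h, 7.61 (SE 0.26) against DE(b) and 8.25 (SE 0.26) against LM. Over the 4 day 1 treatments, the rise from 24 h ranged from 2.99 (SE 0.36) in PPS to 10.55 (SE 0.68) in DE(a) cells, where the fold rests on 1 count in 2 libraries. As a ratio of pooled counts, the latter was 2035 with a counting interval of 365 to 80409.

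LFNG stood at 93.0 to 174 CPM in the PM libraries and at most 27.7 CPM elsewhere. Its mean log2 fold change was 3.55 (SE 0.18) against 24 h, 4.26 (SE 0.18) against DE(b) and 5.40 (SE 0.20) against LM. LFNG was called higher in all 12 comparisons within a day 1 treatment.

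The ligand DLL1 reached 313 and 208 CPM in DE(a)-PM, 297 and 167 CPM in APS-PM, 240 and 136 CPM in MPS-PM, and 242 and 240 CPM in PPS-PM. The replicates of 3 of these conditions lay far apart, and all were above the highest library elsewhere, 88.5 CPM in PPS-24h. The mean log2 fold changes were 3.92 (SE 0.21), 6.32 (SE 0.24) and 7.35 (SE 0.26) against 24 h, DE(b) and LM. From MPS and PPS cells, which expressed DLL1 at 24 h, the rise was 1.44 (SE 0.37, adjusted p = 0.00688) and 1.56 (SE 0.37, adjusted p = 0.0043). Those calls were lost, with adjusted p of 0.0687 and 0.131, without MPS-24h replicate 1 or MPS-PM replicate 1 (log2 fold changes of 1.37 and 1.00), and without PPS-24h replicate 2 (1.41, adjusted p = 0.0628).

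DLL1 was counted under 2 identifiers, ENSG00000198719 on the primary assembly and ENSG00000275555 on an alternate copy of the locus, and the values here are their sum. The second identifier held 9.05% to 21.0% of the DLL1 counts in PM libraries and 0 in 19 libraries. In MPS-24h it held 429 of 1380 counts in replicate 1 and 0 of 1391 in replicate 2. With the identifiers kept apart, an alternative chosen after seeing the data, the log2 fold change of the primary one was 1.498 (adjusted p = 0.0886) in MPS cells and 1.55 (adjusted p = 0.0845) in PPS cells, and neither was called. DLL1 also overlaps FAM120B on the opposite strand and a lncRNA on its own, LFNG overlaps MIR4648, and RIPPLY2 a lncRNA on the opposite strand. The library kit keeps the strand, and whether counting used it is not given in the sources used here.

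DLL3 was the most abundant member. Its PM libraries ranged from 538 to 1123 CPM with a median of 703 CPM, and the highest library elsewhere was at 382 CPM. The mean log2 fold changes were 4.58 (SE 0.19), 3.67 (SE 0.19) and 6.57 (SE 0.21) against 24 h, DE(b) and LM. Scaled by the length of the canonical transcript, DLL3 stood at 319 to 438 CPM per kb in the PM conditions. TBX6 followed at 85.2 to 103 CPM per kb, and DLL1 (49.8 to 68.9), MSGN1 (40.2 to 66.3), LFNG (40.1 to 60.3) and HES7 (31.3 to 77.8 CPM per kb) overlapped one another.

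**Figure D2:**
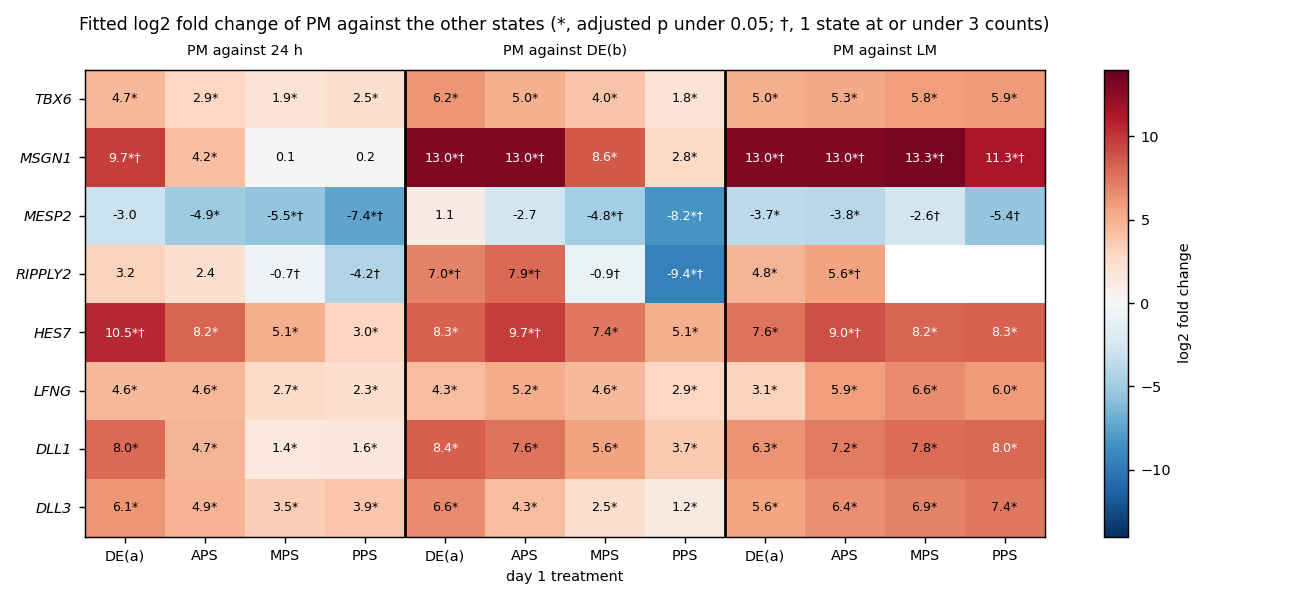
Log2 fold change of each gene (rows) in PM against 24 h, DE(b) and LM within each day 1 treatment (columns), as colour and number. A star marks an edgeR adjusted p under 0.05 and a dagger a comparison in which 1 condition is at or under 3 counts in each library, where the value depends on the prior count. No value is drawn where both conditions are that low. TBX6, HES7, LFNG, DLL1 and DLL3 are starred and positive in all 12 columns.

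MESP2, which sets the segment boundary and shares the RBPJ core with MSGN1, moved the other way. Its counts in PM were 10 and 0 from DE(a) cells, 4 and 0 from APS cells, 2 and 0 from MPS cells, and 0 and 0 from PPS cells. At 24 h they were 34 and 34, 58.7 and 61.0, 56.1 and 62.1, and 30.0 and 12, so that every 24 h library lay above every PM library. All of these levels are low, at most 3.05 CPM at 24 h and 0.470 CPM in PM. The mean log2 fold change in PM was -5.20 (SE 0.69, adjusted p = 2.5e-06) against 24 h, -3.63 (SE 0.76, adjusted p = 0.000475) against DE(b) and -3.88 (SE 0.72, adjusted p = 0.00015) against LM, values that depend on the prior count. As ratios, MESP2 in MPS cells was 45.9-fold lower in PM than at 24 h (95% counting interval 12.4 to 384), and in PPS cells at least 8.10-fold lower. Without DE(a)-DE(b) replicate 1 the mean difference from DE(b) was -2.60 and was not called. Within a day 1 treatment, MESP2 was called lower in PM than at 24 h in APS, MPS and PPS cells. Against DE(b) it was called in MPS and PPS cells, and against LM in DE(a) and APS cells. In DE(a) cells against DE(b) it was at 1.13, higher in PM and not called. Both calls against LM were lost with some library of the comparison left out. So were those of APS and MPS cells against 24 h and of MPS cells against DE(b).

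RIPPLY2, with the T-box core and TATA box shown above, split between replicates. It had 184 and 3 counts in DE(a)-PM, 66.1 and 2 in APS-PM, 3 and 2 in MPS-PM, and 0 in both PPS-PM libraries. The replicate 1 libraries of DE(a)-PM and APS-PM therefore carried it almost alone among the PM libraries. The endoderm markers SOX17 and FOXA2 were at 72.7 and 33.0 CPM in DE(a)-PM replicate 1 and at 3.75 and 3.37 CPM in replicate 2, and SOX17 was at 2.44 and 0.213 CPM in the APS-PM replicates. Their part in the difference was not tested. It was not called between PM and 24 h on average (adjusted p = 0.819). The calls of RIPPLY2 in DE(a)-PM and APS-PM against DE(b) or LM were lost without the replicate 1 library of that PM condition, with adjusted p of 0.565 and 0.433 against DE(b) and of 1.0 and 0.797 against LM, and also without either library of the condition compared with (adjusted p of 0.0773 to 0.251). In PPS-DE(b) it had 107 and 58.5 counts, and in 24 h and other DE(b) libraries at most 8.

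**Figure D3:**
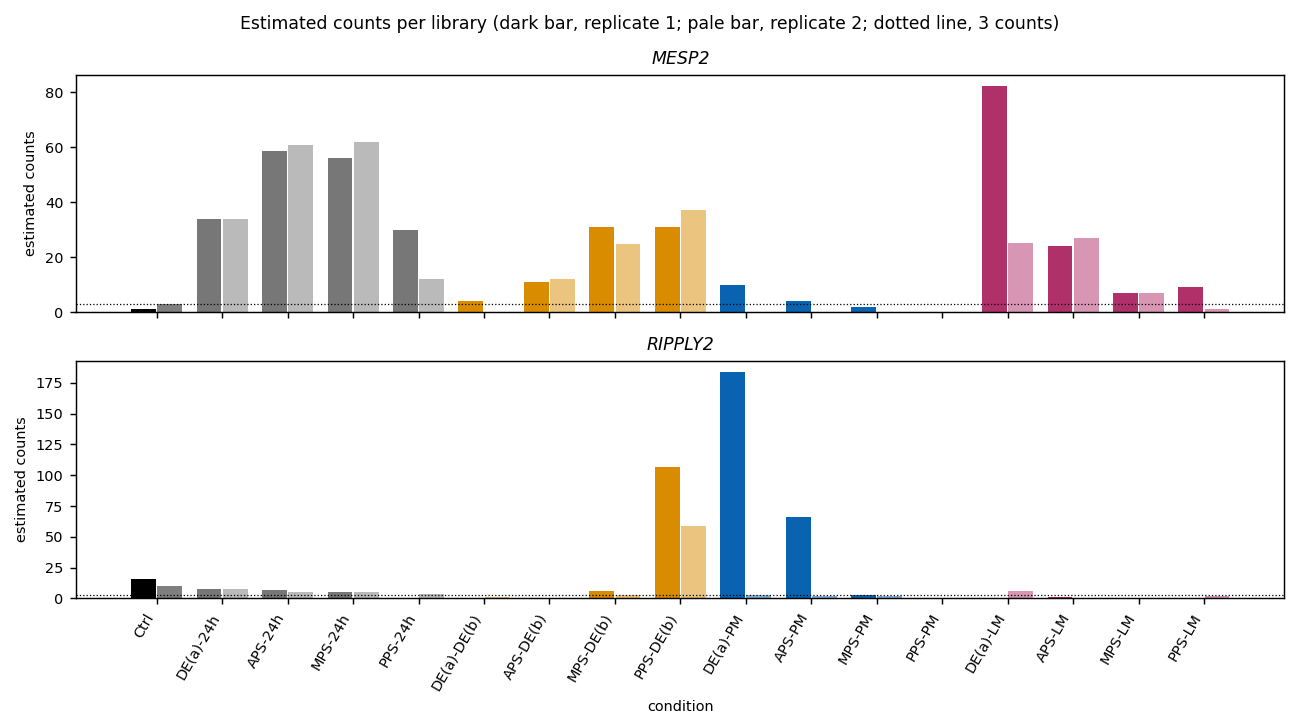
Estimated counts of MESP2 and RIPPLY2 in each of the 34 libraries, by condition, with the 2 replicates as neighbouring bars and a dotted line at 3 counts. MESP2 is at 12 or more counts in each 24 h library and at 10 or fewer in each PM library, and RIPPLY2 passes 50 counts in 4 libraries: DE(a)-PM replicate 1, APS-PM replicate 1 and both of PPS-DE(b).

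Counted by day 1 treatment, PM against 24 h called 6 members in DE(a), 7 in APS, 6 in MPS and 6 in PPS cells, against 23.6%, 25.1%, 22.6% and 20.3% of all genes. PM against DE(b) called 7, 7, 7 and 8 members in the same order, against 20.5%, 23.6%, 21.3% and 18.0%. PM against LM called 8, 8, 6 and 6 members, against 18.3%, 21.8%, 18.2% and 22.8%. The smallest of the calls among the 6 genes that rose was DLL3 in PPS-PM against PPS-DE(b) (1.21, SE 0.33, adjusted p = 0.0132). It was lost without PPS-DE(b) replicate 1 (1.13, adjusted p = 0.111), PPS-DE(b) replicate 2 (1.29, adjusted p = 0.0668) or PPS-PM replicate 2 (0.72, adjusted p = 0.272).

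Within PM medium, TBX6, MSGN1, HES7, LFNG, DLL1 and DLL3 differed little between day 1 treatments beside their differences from DE(b) and LM. RIPPLY2 was apart, at 8.64 and 0.168 CPM in the DE(a)-PM replicates and 0 in those of PPS-PM. Against the standard APS-PM, edgeR called 0 members in DE(a)-PM (0.0559% of all genes called), 0 in MPS-PM (0.447%) and 0 in PPS-PM (5.26%). At an unadjusted p under 0.05 there were 0, 1 (RIPPLY2) and 3 (MSGN1, RIPPLY2, HES7), and DESeq2 called 0, 0 and the same 3. PPS-PM against MPS-PM also gave 0 members by edgeR (1.03% of all genes), 0 at an unadjusted p under 0.05 and 0 by DESeq2. For TBX6 the log2 differences from APS-PM were -0.09, -0.08 and 0.19 (SE 0.23 each) in the order DE(a), MPS and PPS. HES7 had the largest among the abundant members, -0.48, 0.42 and 0.85 (SE 0.33 each). For MSGN1 they were -0.04, 0.27 and 0.70 (SE 0.22 each), and for DLL3 -0.19, 0.05 and 0.29 (SE 0.33 each). A p that misses the threshold with 2 replicates does not show that these levels were equal.

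The F test over the 4 treatments within PM called 1 member, RIPPLY2 (adjusted p = 0.0298), against 7.47% of all genes, and HES7 came next (adjusted p = 0.0576). The call of RIPPLY2 was lost without DE(a)-PM replicate 1, MPS-PM replicate 1, MPS-PM replicate 2, PPS-PM replicate 1 or PPS-PM replicate 2, with adjusted p between 0.0611 and 0.115. Without APS-PM replicate 2, RIPPLY2 was called in PPS-PM against APS-PM, and the count there was 1.

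In DE(b) medium the levels of the members differed with the day 1 treatment, and cells from PPS had the highest means. All 8 were called higher there than in the standard endoderm condition, against 17.4% of all genes. The call of LFNG was lost whichever library of this comparison was left out (log2 fold changes of 0.997 to 1.23). Those of MESP2 and RIPPLY2 were lost without some of these libraries. TBX6 stood at 2.27 and 1.92 CPM in DE(a)-DE(b), 4.69 and 5.18 CPM in APS-DE(b), 9.81 and 8.66 CPM in MPS-DE(b), and 49.3 and 52.8 CPM in PPS-DE(b). Its groups did not overlap, and PPS-DE(b) exceeded DE(a)-DE(b) by 4.64 (SE 0.30) on the log2 scale. MSGN1 was at 0 counts from DE(a) and APS cells, at 1 and 4 counts in MPS-DE(b), and at 13.9 and 10.7 CPM in PPS-DE(b), at least 76.5-fold above DE(a)-DE(b). DLL3 was highest of all, from 4.66 and 7.79 CPM in DE(a)-DE(b) through 32.2 and 37.2 CPM in APS-DE(b) and 103 and 157 CPM in MPS-DE(b) to 341 and 382 CPM in PPS-DE(b). HES7 reached 4.27 and 3.18 CPM and LFNG 14.4 and 12.9 CPM in PPS-DE(b).

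Relative to the PM level from the same cells, the levels in PPS-DE(b) were spread from gene to gene. DLL3 was at 41.1% of its PPS-PM mean (30.3% to 60.3% over the replicate pairs), TBX6 at 27.0% (25.2% to 28.9%), MSGN1 at 13.9% (11.1% to 17.2%), LFNG at 12.4% (10.1% to 15.5%), DLL1 at 7.38% (7.04% to 7.73%) and HES7 at 2.82% (2.32% to 3.36%). These shares are a description, and the differences between genes were not tested. In MPS-DE(b) the share of DLL3 was 17.4% and that of TBX6 5.89%, and the other 4 were at or below 4.10%.

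**Figure D4:**
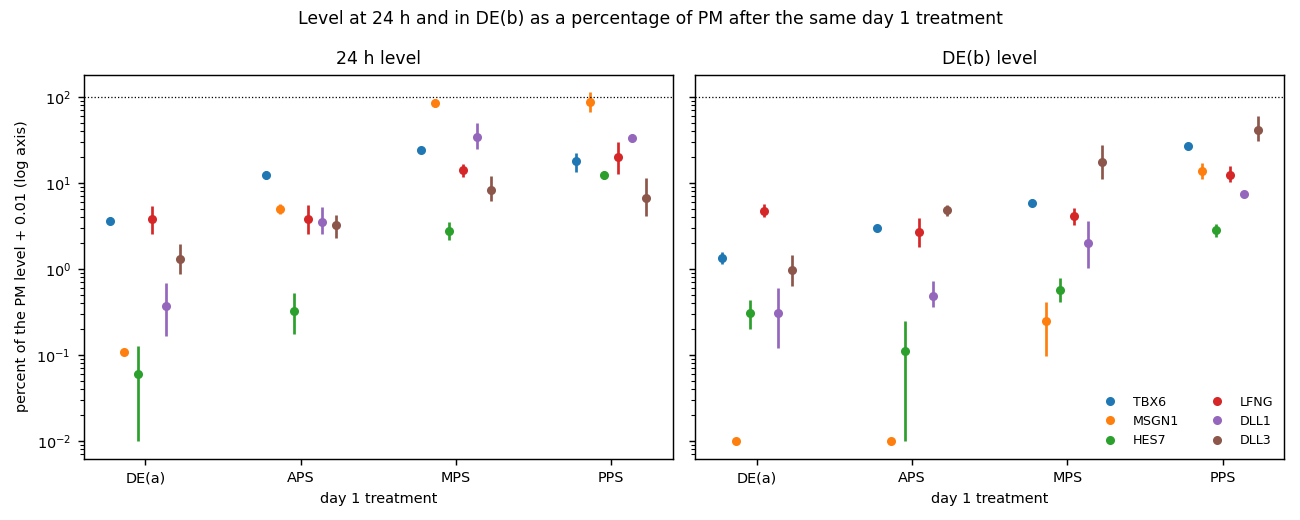
Level at 24 h and in DE(b) as a percentage of the PM mean from the same day 1 treatment, for the 6 genes that rose in PM. Points are ratios of condition means and vertical lines run from the lowest to the highest ratio over the replicate pairs. In DE(b), DLL3 (41.1%) and TBX6 (27.0%) stand highest in PPS cells and HES7 (2.82%) lowest.

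From 24 h to DE(b), the ligands differed in direction in MPS and PPS cells. In DE(a) cells neither was called (DLL1 -0.39, DLL3 -0.50), and in APS cells DLL3 was not (0.53, adjusted p = 0.258). DLL1 fell in APS (-2.91, SE 0.49), MPS (-4.18, SE 0.44) and PPS cells (-2.13, SE 0.39). DLL3 rose in MPS (0.98, SE 0.34, adjusted p = 0.0316) and PPS cells (2.65, SE 0.35, adjusted p = 9.2e-06), and the call in MPS cells was lost without MPS-24h replicate 1, MPS-24h replicate 2 or MPS-DE(b) replicate 2 (1.13, 0.87 and 0.67, adjusted p of 0.0788 to 0.275). TBX6 fell in DE(a), APS and MPS cells, with log2 fold changes of -2.11 to -1.497, and was at 0.64 (SE 0.24, adjusted p = 0.0616) in PPS cells. RIPPLY2 was called higher in PPS cells (adjusted p = 0.0348), and that call was lost without any 1 of its 4 libraries (adjusted p of 0.0658 to 0.165). The members called were 2 in DE(a) cells (TBX6 and MESP2, both lower), 3 in APS, 6 in MPS and 5 in PPS cells, against 28.0%, 30.6%, 27.9% and 20.5% of all genes. The count in DE(a) cells was 1 without DE(a)-DE(b) replicate 2.

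The DE(b) conditions were compared with the endoderm standard and, for PPS, with MPS. Against DE(a)-DE(b), APS-DE(b) called 1 member (DLL3, 2.49, SE 0.37) where 0.469% of all genes were called, and MPS-DE(b) called 3 (TBX6, DLL1, DLL3) where 5.59% were. The call of DLL1 in MPS-DE(b) was lost without DE(a)-DE(b) replicate 1 (log2 fold change 1.60) or MPS-DE(b) replicate 2 (1.72). PPS-DE(b) against MPS-DE(b) called 6 (TBX6, MSGN1, HES7, LFNG, DLL1, DLL3) where 5.93% of all genes were, with log2 fold changes from 1.51 (SE 0.34) for DLL3 to 6.29 (SE 0.38) for MSGN1. The F test over the 4 treatments called 7 members, all but MESP2, where 16.6% of all genes were. Without DE(a)-DE(b) replicate 1, APS-DE(b) called 0 members. Without PPS-DE(b) replicate 1 or DE(a)-DE(b) replicate 2, PPS-DE(b) called 5 against the endoderm standard, and without MPS-DE(b) replicate 1, PPS-DE(b) against MPS-DE(b) called 3. Endoderm markers differed along the same series, FOXA2 and CXCR4 falling at each step and SOX17 and CER1 rising up to MPS before a fall in PPS. FOXA2 had means of 105, 66.0, 27.5 and 6.59 CPM in DE(b) medium after DE(a), APS, MPS and PPS treatment, and CXCR4 of 161, 115, 24.1 and 13.4 CPM. SOX17 stood at 385, 459, 472 and 168 CPM and CER1 at 4091, 4747, 5674 and 3593 CPM, so that in PPS-DE(b), where the members were highest, each of these 4 markers had its lowest mean of the DE(b) conditions. Their part in the differences between the members was not tested.

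In LM medium the members were low. TBX6 stood at 1.66 to 5.27 CPM, HES7 at no more than 0.630 CPM, and DLL1 at no more than 4.08 CPM. DLL3 kept 16.2 and 10.9 CPM from DE(a) cells and at most 8.62 CPM in any other LM library. LFNG from DE(a) cells was at 15.1 and 15.99 CPM, against 3.07 and 1.77 CPM in APS-LM, 0.524 and 1.28 CPM in MPS-LM, and 1.37 and 1.97 CPM in PPS-LM. LFNG in DE(a)-LM exceeded MPS-LM by 3.94 (SE 0.42, adjusted p = 1e-06). DE(a)-LM called 3 members against MPS-LM, LFNG with DLL1 (1.91, SE 0.56) and DLL3 (1.11, SE 0.37, adjusted p = 0.0499), against 14.4% of all genes. APS-LM called 0 by edgeR (3.79% of all genes, with 2 members, TBX6 and LFNG, at an unadjusted p under 0.05 and LFNG by DESeq2), and PPS-LM called 0 (5.62%, with 0 at an unadjusted p under 0.05 and 0 by DESeq2). Without DE(a)-LM replicate 1 or MPS-LM replicate 2, LFNG alone was called in DE(a)-LM.

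SOX17 and FOXA2 were at 94.8 and 34.6 CPM in DE(a)-LM replicate 1 and at 69.6 and 28.8 CPM in replicate 2, and at no more than 5.06 and 2.28 CPM in the other LM libraries. Their part in these differences was not tested. MESP2 had its highest mean of all conditions in DE(a)-LM, with 82.4 counts in replicate 1 against 25.0 in replicate 2, 5.24 and 1.19 CPM. Against 24 h, LM medium lowered 5 members in APS, 7 in MPS and 6 in PPS cells, where 37.2%, 31.3% and 24.9% of all genes were called, although the call of MESP2 in MPS cells was lost without any 1 of its 4 libraries (adjusted p of 0.0935 to 0.191). In DE(a) cells it called 2, LFNG (1.43, SE 0.34) and DLL1 (1.64, SE 0.54), both higher, where 32.2% of all genes were. That count was 1 without DE(a)-LM replicate 1 and 0 without DE(a)-24h replicate 2. The F test over the 4 treatments within LM called 3 members (LFNG, DLL1, DLL3) against 19.6% of all genes, and 1, LFNG, without DE(a)-LM replicate 1, MPS-LM replicate 2 or PPS-LM replicate 2.

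Whether the day 1 treatment mattered differently in each medium was tested directly. The interaction of day 1 and day 2 over the 12 conditions was called for all 8 members, against 13.1% of all genes, and for 7, without MESP2, when DE(a)-DE(b) replicate 2 or PPS-DE(b) replicate 2 was left out. The log2 difference of PPS from DE(a) cells was larger in DE(b) than in PM for 7 members, where 7.71% of all genes were called, and LFNG missed the threshold (1.40, SE 0.46, adjusted p = 0.0661). For TBX6 the excess was 4.36 (SE 0.37), for DLL1 4.67 (SE 0.64) and for DLL3 5.42 (SE 0.51). In LM against PM, 2 members were called, LFNG (-2.82, SE 0.50) and DLL3 (-1.85, SE 0.50, adjusted p = 0.0269), where 6.52% of all genes were. LFNG alone was called there without DE(a)-PM replicate 1, DE(a)-LM replicate 1, PPS-PM replicate 2 or PPS-LM replicate 2.

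Other genes of the same pathways were followed in lists chosen by name. Their counts stand beside the shares of all genes given above, which were 23.2% higher and 25.1% lower against 24 h, 21.5% and 21.4% against DE(b), and 21.0% in each direction against LM. Of 16 other Notch genes tested, 8 were higher and 2 lower in PM than at 24 h, with a median of 0.38. HEYL, a Notch target, rose by 3.39 (SE 0.25) and the receptor NOTCH1 by 1.63 (SE 0.11), while the effector gene HES1 fell by 3.43 on the log2 scale (SE 0.30) and RBPJ by 0.18 (SE 0.07). Library totals in place of TMM shift this comparison by 0.09. Against DE(b) the count was 8 higher and 2 lower, and against LM 9 and 2. HES5 has 2 identifiers, and the 1 that was read was at 0 counts in every library. The other was not read, so the level of HES5 is not settled.

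Of 11 partner genes of the tail bud and presomitic mesoderm, 7 were higher and 4 lower than at 24 h, and 10 were higher and 1 lower than in DE(b) and than in LM. RSPO3, a Wnt agonist, rose by 4.06 (SE 0.23) and the ligand WNT8A by 2.88 (SE 0.35). CYP26A1, which degrades retinoic acid, fell by 5.63 (SE 0.90) and NKX1-2 by 1.37 (SE 0.28). CYP26A1 was at 297 to 1038 CPM in the DE(b) conditions, 0.219 to 125 CPM in the 24 h conditions and at most 0.470 CPM in the PM conditions.

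Wnt feedback genes gave no common direction against 24 h, with 3 of 11 higher and 5 lower, and were higher in 8 and lower in 1 against DE(b) and higher in 11 of 11 against LM, the medium with IWP2. TNFRSF19 rose by 2.18 (SE 0.22) and DACT1, a regulator of Wnt signalling, by 1.71 (SE 0.14). On average over the day 1 treatments, the Wnt inhibitors DKK4 and NOTUM fell by 2.40 (SE 0.79) and 0.95 (SE 0.36). Condition means of DKK4 were 10.1 to 477 CPM at 24 h and 14.8 to 37.6 CPM in PM, so not every treatment shared its fall. Of 15 FGF ligands and feedback genes, 5 were higher and 6 lower against 24 h, 9 and 4 against DE(b), and 11 and 2 against LM. The ligand FGF3 rose by 2.71 (SE 0.38) and the FGF target ETV5 by 1.88 (SE 0.19), and the ligands FGF4 and FGF18 fell by 3.37 (SE 0.18) and 1.97 (SE 0.30).

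Of 12 segment boundary and somite genes tested, 5 were higher and 2 lower against 24 h, 6 and 1 against DE(b), and 7 and 3 against LM. ALDH1A2, which makes retinoic acid, rose by 6.10 (SE 0.29) and FOXC1, a factor of paraxial mesoderm, by 4.23 (SE 0.18). MESP1, the neighbour and relative of MESP2, fell by 6.10 (SE 0.43), and the ephrin EFNB2 by 1.202 (SE 0.19). Among markers of formed somites, TCF15, MEOX1 and UNCX, chosen after their values were seen, were low in PM. TCF15 was at no more than 2.75 CPM, MEOX1 at no more than 6.43 CPM and UNCX at no more than 0.0561 CPM. The list as a whole was not low. It summed to 596 to 1126 CPM in PM libraries and at most 396 CPM in any other. In the PM conditions FOXC1 was at 117 to 317 CPM and ALDH1A2 at 48.4 to 411 CPM. The median log2 fold changes against 24 h were -0.37 for the Wnt, 0.18 for the FGF, 1.21 for the tail bud and 0.69 for the somite list, beside -0.02 over all genes.

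**Figure D5:**
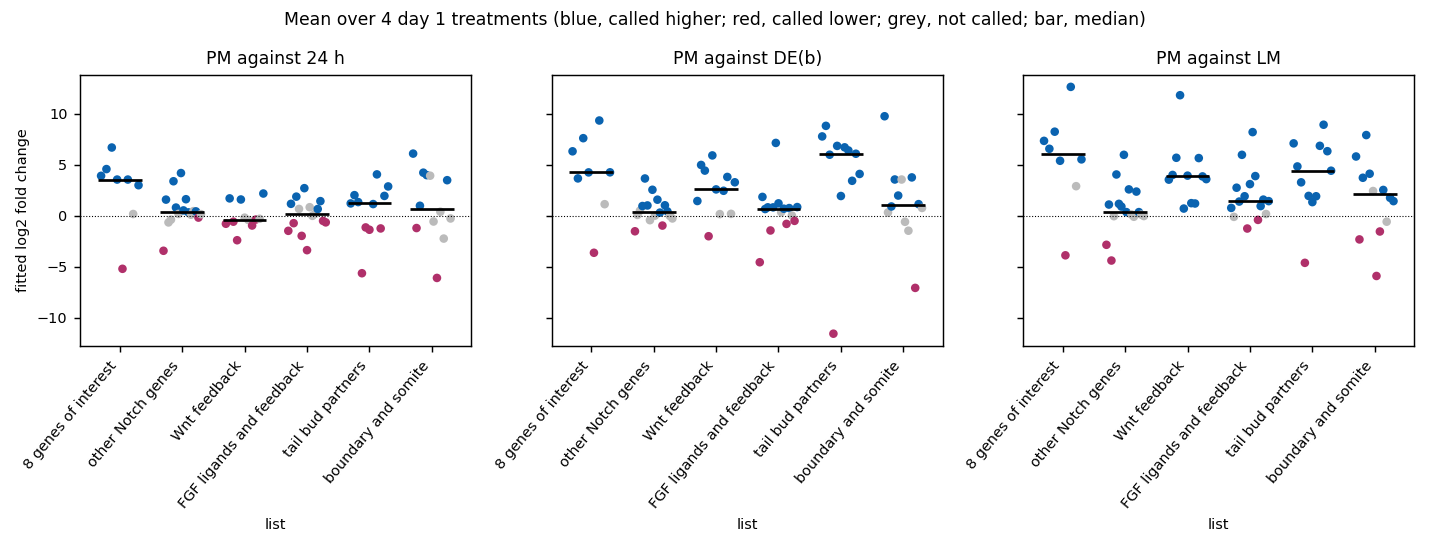
Log2 fold change of each tested gene of the 8 members and the 5 pathway lists in PM against 24 h, DE(b) and LM, averaged over the 4 day 1 treatments. Blue points were called higher and red points lower by edgeR (adjusted p under 0.05), grey points were not called, and the bar in each column is the median of the list. The medians of the members are 3.55, 4.26 and 6.05, and the Wnt feedback genes lie at -0.37 against 24 h and at 3.86 against LM.

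Over the 17 condition means of log2(CPM + 1), 6 members were correlated, with Pearson r of 0.80 to 0.97 (Spearman rho of 0.62 to 0.95) between TBX6, MSGN1, HES7, LFNG, DLL1 and DLL3, and of -0.47 to -0.16 between each of them and MESP2. These are descriptions over conditions that share media. Among the 14646 genes whose mean reached 1 CPM, those most like TBX6 were CD226 (r = 0.97), TUBBP6 (0.96) and RSPO3 (0.95), and those most like DLL1 were TUBBP6 (0.97), CD226 (0.96) and SKAP2 (0.96). MSGN1 was nearest to ABLIM1 (0.97), HOXD1 (0.97) and FZD10 (0.96), HES7 to IMPA1P1 (0.98), SMC6 (0.98) and CHI3L1 (0.97), and LFNG to CACNA1I (0.94), SEMA4D (0.93) and HEYL (0.93). DLL3 was nearest to SHISA6 (0.97), DNAH9 (0.95) and SLC8A3 (0.94), and MESP2 to WNT9B (0.91), CA2 (0.90) and RGPD6 (0.88). RIPPLY2 was too low to be ranked. By Spearman rho the nearest gene fell below rank 3 for 5 of the 7 members ranked, and the lists of the others changed too. TUBBP6 moved to rank 17 for TBX6, and DNAH9 and SLC8A3 to ranks 53 and 25 for DLL3. The 3 genes nearest to HES7 moved to ranks 188, 184 and 191, TUBBP6 and SKAP2 moved to ranks 108 and 238 for DLL1, and ABLIM1 moved to rank 94 for MSGN1.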

How the data were processed

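Poly(A) RNA of 34 libraries, 2 per condition, was sequenced as stranded paired-end reads. Estimated counts were deposited by the authors as made with Salmon 1.10.2 (quasi-mapping, selective alignment, sequence and GC bias correction, GRCh38) and summed to genes in R 4.4.2, with no normalization and no gene lengths. Replicate 1 and replicate 2 libraries came in 2 tables, and 0 count columns were left unmatched.

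Counts were rounded, and the 2 DLL1 identifiers were summed. Differences were tested with edgeR 4.0.16 in R 4.3.3 (TMM, filterByExpr by condition, 17894 of 37950 genes, 1 mean per condition over 34 libraries, quasi-likelihood tests, Benjamini-Hochberg adjustment, threshold 0.05). The SE is the fold change divided by the root of its F statistic. The common dispersion was 0.061 on 17 residual degrees of freedom. CPM used library totals, computed in Python 3.11.15 with pandas 2.3.3. The steps were tested on simulated data. Gene positions and the lengths of canonical transcripts (570 to 3779 bases for the members) came from GENCODE v44, promoters from RefSeq.

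The members and lists were chosen with earlier results of these data known. All members are named, and in each other list the 2 largest called rises and 2 largest called falls in PM against 24 h among genes reaching 10 CPM in a condition; genes named beyond this rule were chosen after their values were seen. Genes most like a member are the 3 with the highest Pearson r. Where a condition was at 0, a fold is a bound at 3 counts per library, and with 1 to 3 counts a ratio of pooled counts with an exact 95% interval for counting error. Alternatives were RLE, library totals, no filter, a replicate block, only the libraries compared, DESeq2 1.42.0, DLL1 identifiers apart, each replicate left out, a pseudocount of 0.1 CPM, TMM-scaled CPM, Spearman rho, condition means without the control, and a longer promoter window. Whether replicate numbers pair the samples was not settled. Of 136 pairs of conditions, 43 had deviations correlated above 0.1 (median 0.08, range -0.07 to 0.34), so the block was kept as an alternative.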

Additional observations from a re-analysis of the deposited data

Results flagged for a closer look

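The effect of the day 1 treatment differed between media for the members by tests of the difference itself, and the interaction over the 12 conditions of day 2 was called for 8 members. The log2 difference of PPS from DE(a) cells was larger in DE(b) than in PM medium by 4.36 for TBX6, 10.20 for MSGN1, 9.35 for MESP2, 16.41 for RIPPLY2, 3.20 for HES7, 4.67 for DLL1 and 5.42 for DLL3. The values of MSGN1, MESP2 and RIPPLY2 depend on the prior count, since conditions at 0 enter them. MESP2 was not called there without DE(a)-PM replicate 1 (4.12), DE(a)-DE(b) replicate 2 (8.48) or PPS-PM replicate 2 (9.33), and HES7 not without DE(a)-DE(b) replicate 2 (2.93). In LM medium, PPS cells lay below DE(a) cells for LFNG (means of 1.67 and 15.6 CPM) and DLL3 (4.88 and 13.6 CPM). In PM medium the means of PPS and DE(a) cells were 110 and 138 CPM for LFNG and 878 and 639 CPM for DLL3. The signed log2 difference of PPS from DE(a) cells was therefore lower in LM than in PM, with -2.82 for LFNG and -1.85 for DLL3. DLL3 was not called there without DE(a)-PM replicate 1 (-1.62), DE(a)-LM replicate 1 (-1.58), PPS-PM replicate 2 (-1.35) or PPS-LM replicate 2 (-1.51).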

How the results depend on the processing

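No called difference of a member reversed its direction under any alternative. Differences that were not called were not followed in this way. The 7 members called between PM and 24 h, DE(b) or LM on average stayed at 7 or 8 under every other setting, and at 6 in 1 case, against DE(b) without DE(a)-DE(b) replicate 1. Library totals in place of TMM shifted all log2 fold changes of PM against 24 h by 0.03 to 0.12. Of 226 calls of single members, leaving out 1 library in turn lost a call 118 times, using only the libraries compared lost 19, separate DLL1 identifiers 9, RLE 1, library totals 1, and no filter and DESeq2 0 each. Over all settings DLL1 lost a call 36 times, MESP2 35, DLL3 33, RIPPLY2 30, LFNG 14 and HES7 2, and TBX6 and MSGN1 none.

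Without the filter on low counts, 6 members were called in APS-DE(b) against APS-24h, 4 in DE(a)-LM against DE(a)-24h, 2 in PPS-PM against APS-PM, 2 in APS-DE(b) against DE(a)-DE(b), 5 in DE(a)-LM and 1 in APS-LM against MPS-LM, 2 within PM, 5 within LM and 4 in the LM minus PM difference. With only the libraries compared, the counts were 1 in DE(a)-LM against DE(a)-24h, 0 in APS-DE(b) against DE(a)-DE(b), 1 in DE(a)-LM against MPS-LM, 2 in MPS-24h against APS-24h, 0 within PM, 1 within LM and 1 in the LM minus PM difference. DESeq2 called 3 in PPS-PM against APS-PM, 2 in APS-DE(b) against DE(a)-DE(b), 5 in DE(a)-LM and 1 in APS-LM against MPS-LM, and 3 within PM. With separate DLL1 identifiers, 1 was called in DE(a)-LM against DE(a)-24h. The cause was not tested.

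With the replicate number as a block, 2 members were called in APS-DE(b) against DE(a)-DE(b) (TBX6 and DLL3) and 2 within PM (RIPPLY2 and HES7), and RIPPLY2 was lost in DE(a)-PM and APS-PM against LM (adjusted p = 0.0718 and 0.0523). No other call was lost with the block. The counts rose from 6 to 7 in DE(a)-PM against DE(a)-24h and in PPS-PM against PPS-LM (MESP2), from 5 to 6 in PPS-DE(b) against PPS-24h and in MPS-24h against APS-24h (TBX6), from 3 to 4 in MPS-DE(b) against DE(a)-DE(b) (MESP2), from 7 to 8 within DE(b) (MESP2), from 3 to 4 within LM (MESP2), and from 7 to 8 in the difference of PPS from DE(a) cells between DE(b) and PM (LFNG). Samples of the same replicate share a number and a table, and whether they share more is not given.

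With each replicate left out, the members called ranged from 2 to 4 in DE(a)-24h against Ctrl, 1 to 2 in DE(a)-DE(b) and 0 to 2 in DE(a)-LM against DE(a)-24h, 0 to 1 in PPS-PM against APS-PM and in APS-DE(b) against DE(a)-DE(b), 5 to 6 when PPS-DE(b) was set beside it, 1 to 3 in DE(a)-LM against MPS-LM, 3 to 4 in MPS-24h against APS-24h, 3 to 6 in PPS-DE(b) against MPS-DE(b), 0 to 1 within PM, 1 to 3 within LM and 1 to 2 in the LM minus PM difference. The lone sample left was assumed to vary like the other groups.

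With TMM-scaled library sizes, 9 of 136 levels moved by more than their SD. Depth limits MESP2 and RIPPLY2, which had 3 counts or fewer in 10 and 19 of the 34 libraries.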

Other observations

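RIPPLY1, a relative of RIPPLY2 chosen here after its values were seen, was found mainly in DE(b) medium. It stood at 0.291 to 3.61 CPM in the 8 DE(b) libraries, at 0 in all 8 PM libraries, and at no more than 0.259 CPM at 24 h and 0.0477 CPM in LM. Beside it, RIPPLY2 had 107 and 58.5 counts in PPS-DE(b), 6 and 3 in MPS-DE(b) and at most 1 in the other DE(b) libraries, and MESP2 had 31.0 and 37.3 counts in PPS-DE(b).

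PAX3, a factor of the somite and neural plate border, was also chosen after its values were seen. It stood at up to 68.5 CPM in the 24 h libraries, with a median of 5.35 CPM, and at 1.04 to 12.4 CPM in PM.

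In the 250 bases before the start, MSGN1 had the lowest GC content of the 6 matched members, 40.8%, and TBX6 the highest, 72%, beside a median of 58% over all promoters.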
